A study of Mus musculus with 24 samples.

Results

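Streptozotocin (STZ) diabetes was compared with vehicle treatment in hearts of control mice. The comparison used 12 of the 24 arrays of the series, those whose titles read CON_STZ and CON_VEH, with 6 mice in each group and 1 left ventricle per array. All mice were male. CON is the control genotype of a line in which mG4H mice carry an inducible transgene for the glucose transporter GLUT4 that is active only in heart muscle cells, and the labels say no more about the CON genotype. STZ, a toxin that destroys the insulin-producing beta cells of the pancreas, was injected at 55 mg per kg after a short fast on each of 5 days in a row, and the CON VEH mice received citrate buffer. The left ventricles were taken in the early morning, about 4 weeks after injection, since the transgene of the mG4H mice was switched on 2 weeks after STZ and harvest followed 2 weeks later. The labels do not say whether CON mice received the inducing treatment, and they mention sibling pairs across groups without naming them. The ventricle is a mixture of muscle cells, fibroblasts, vessel cells and blood cells, so fewer cells of a type and less RNA per cell cannot be told apart.

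Heart muscle takes up glucose under the control of insulin and burns mainly fatty acids, and it uses glucose, lactate, ketone bodies and amino acids beside them. When insulin is lacking, blood fatty acids and ketone bodies rise together with glucose. Fatty acids inside the muscle cell bind the nuclear receptor PPAR alpha, which switches on genes for fatty acid uptake, storage, hydrolysis of acyl-CoA and oxidation. The enzyme complex that feeds pyruvate into the citric acid cycle is held inactive by the kinase Pdk4, itself a PPAR and FoxO target.

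The STZ mice were diabetic and lighter. Blood glucose at 4 weeks was lowest at 117, with a median of 142 and a highest value of 164, in CON VEH. In CON STZ it was 600 in 1 mouse and 601 in the other 5. The labels give no unit for glucose or weight, and values of 600 and 601 may be the top of the meter's range, in which case the difference of 460.2 is a lower bound. Body weight ran from 27.9 through a median of 30.3 to 36.4 in CON VEH and from 21.8 through 26.2 to 27.8 in CON STZ, so the groups did not overlap. Weight was 5.25 lower on average after STZ. Both differences had p = 0.00216 in two-sided exact permutation tests, the smallest value that 6 against 6 mice can give, and p = 0.00216 after Benjamini-Hochberg adjustment over the 2 tests.

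Each array gave a log2 level for 28235 genes, measured against the array's own 75th percentile of signal, so that a level of 0 is that percentile and 1 unit is a doubling. The 75th percentile of the 12 arrays and the share of spots above background, 58.5% to 76.2%, overlapped between the groups, and the number of arrays limits the precision. The first principal component of the 12 arrays held 48.7% of the variance, of which 90.3% lay between slides. The second held 12.8%, of which 57.4% lay between treatments. Slides 1 to 3 each held both groups, and slide 4 held only CON VEH mouse 3. In limma, 469 genes (1.66% of all) were called higher and 648 (2.3%) lower in CON STZ at an adjusted p under 0.05, or 3.96% in either direction. With slide as a block the counts were 569 and 830, or 2.02% and 2.94%. Of the 469, 468 kept their sign within each of slides 1, 2 and 3, and so did all 648 of the lower genes. The genes were called on these same arrays, so this agreement follows in large part from that choice and is no separate support. The groups did not overlap at all for 310 of the 469 and 460 of the 648, beside 1.91% of all genes with every STZ mouse above and 2.67% with every STZ mouse below every vehicle mouse. Most changes were small, with a median of 1.59-fold among the higher genes and 1.41-fold among the lower ones, and 123 and 104 genes reached 2-fold. The median log2 change over all genes was 0.027. Leaving out CON STZ mouse 1, the lightest mouse, cut the counts to 264 higher and 372 lower, and below, a call is said to hold when it passed with each of the 12 mice left out in turn. Holding does not cover other processing. With centring on the array median, 162 of the higher and 164 of the lower genes kept their call. Counts of list members below are to be read beside the shares over all genes, 1.66% higher and 2.3% lower.

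The smallest p of all named genes was that of Acot1, a gene for one of the acyl-CoA thioesterases, which split fatty acyl-CoA into a free fatty acid and coenzyme A. Of 13 measured thioesterase genes, 5 rose and 1 fell. The 5 that rose sit side by side on chromosome 12, where the mm9 probe positions run from Acot2 at 85334071 through Acot1, Acot4 and Acot3 to Acot5 at 85416634, with Acot6 next at 85451951. Acot1, the cytosolic enzyme of the cluster, had a lowest, median and highest level of 2.93, 3.27 and 3.60 in CON VEH and of 5.76, 5.92 and 7.05 in CON STZ. The lowest STZ mouse was thus more than 2 log2 units above the highest vehicle mouse, and the mean rise was 2.84 ± 0.25 (SE), or 7.16-fold (limma, adjusted p = 4.67e-06). Acot2, the mitochondrial enzyme, went from 1.26, 1.71 and 2.05 to 2.87, 3.37 and 3.58, again without overlap, and rose 3.01-fold (adjusted p = 3.68e-05). Acot4 and Acot5 are peroxisomal members. Acot4 rose by 0.93 ± 0.11 and Acot5 by 2.34 ± 0.30 on the log2 scale, both with the groups apart, while a second Acot5 probe changed by -0.01. Acot3, also peroxisomal, rose by 0.61 ± 0.16 (adjusted p = 0.0368), a call lost without any of 8 mice, with an adjusted p of up to 0.0977. Acot6, the last gene of the cluster, changed by 0.17 ± 0.13 (adjusted p = 0.727) and did not pass. Acot7, a cytosolic enzyme encoded on another chromosome, fell by 0.44 ± 0.11 (adjusted p = 0.0311, or 0.0947 without CON STZ mouse 1). The 5 genes of the cluster that rose are close paralogs, and the files do not show how far each probe is specific, so their separate sizes are uncertain.

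**Figure D1:**
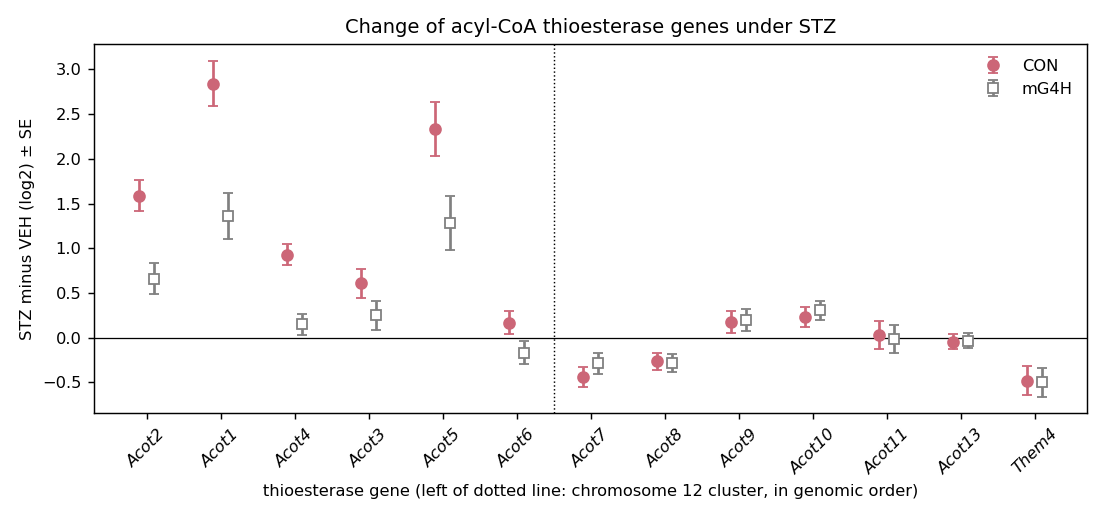
Log2 change from VEH to STZ with its standard error for 13 acyl-CoA thioesterase genes (horizontal axis, chromosome 12 cluster first in genomic order) in CON hearts (filled circles, 6 mice against 6) and mG4H hearts (open squares, 6 against 6). In CON hearts Acot1 is highest at 2.84, the first 5 cluster genes lie at 0.61 or above, and Acot6 lies at 0.17.

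Oxct1 and Bdh1, which serve the burning of ketone bodies, fell. Oxct1, which activates ketone bodies for oxidation, went from lowest, median and highest levels of 7.08, 7.11 and 7.42 in CON VEH to 6.06, 6.40 and 6.55 in CON STZ and was 1.80-fold lower (limma, adjusted p = 0.000187). Bdh1, which oxidises hydroxybutyrate, went from 5.54, 5.80 and 5.99 to 3.89, 4.64 and 5.02 and was 2.33-fold lower (adjusted p = 0.0132), with changes of -1.23 and -1.63 on its other probes. The groups did not overlap for either gene, and both calls held.

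Pdk4 and several genes of fatty acid transport changed. Pdk4 went from 5.84, 6.24 and 6.60 in CON VEH to 8.01, 8.15 and 8.76 in CON STZ, a rise of 2.01 ± 0.23 or 4.03-fold (limma, adjusted p = 7.17e-05). Angptl4, a secreted inhibitor of lipoprotein lipase, went from 3.04, 4.47 and 4.85 to 6.36, 6.63 and 6.99, and the 5.58-fold rise left a gap between the groups. Slc27a1, a fatty acid transport protein of the cell surface, rose by 0.74 ± 0.15, while Acsl6, an acyl-CoA synthetase, fell by 0.97 ± 0.15. The other 16 of 19 measured genes of fatty acid uptake did not pass, among them Cd36, the main fatty acid transporter, at 0.41 ± 0.15 (adjusted p = 0.146) with the groups apart, and Lpl, lipoprotein lipase, at -0.06 ± 0.12. The uncoupling protein genes Ucp3 and Ucp2 rose 3.21-fold and 3.34-fold with the groups apart, Ucp3 by 1.68 on its brightest probe, while a second probe changed by 0.72. Of 21 measured genes for mitochondrial carriers, these and Slc25a34 rose, and Slc25a13, a carrier of aspartate and glutamate, fell. The receptor gene Ppara itself changed by -0.20 ± 0.17 (adjusted p = 0.794). Of its 22-gene list of PPAR and ERR receptors with their coactivators only Esrrg passed, lower by 0.28 ± 0.08, and this call was lost without CON VEH mouse 4 (adjusted p = 0.105) and with slide as a block (adjusted p = 0.0555).

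**Figure D2:**
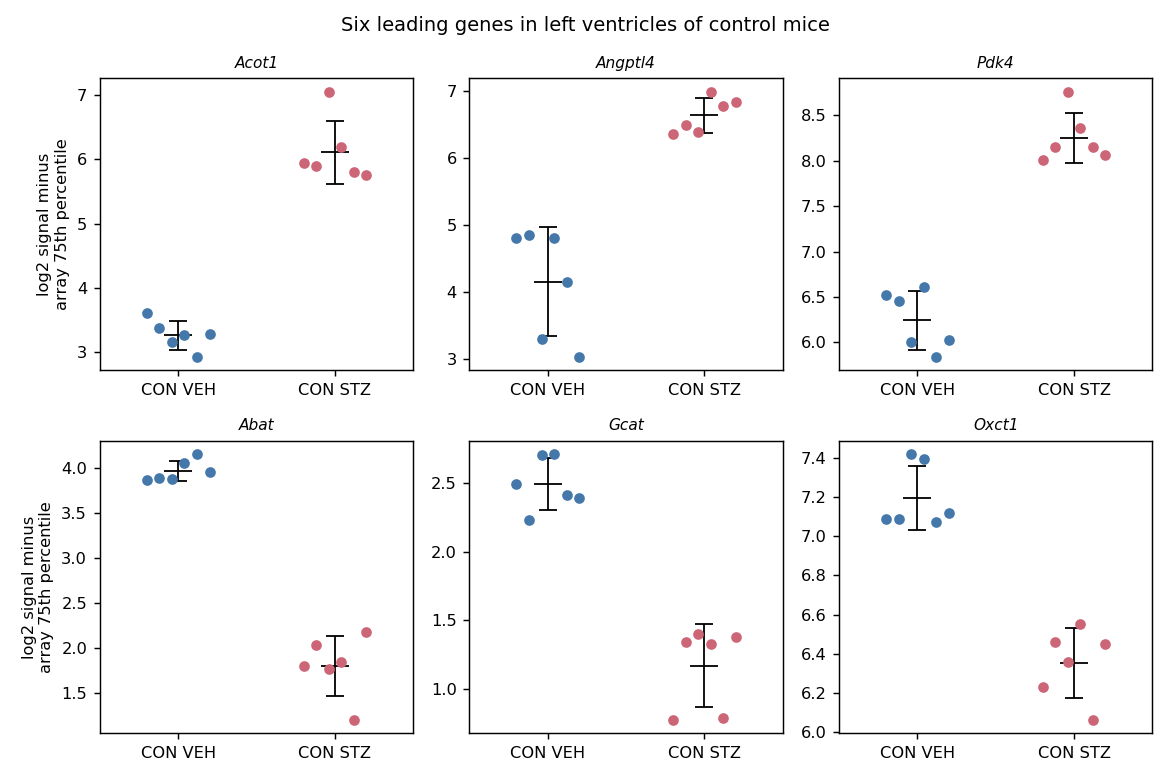
Log2 level against the array's 75th percentile (vertical axes, different ranges) of 6 genes in each of 6 CON VEH and 6 CON STZ mice (points), with the group mean and standard deviation (black). All 6 STZ mice lie above all vehicle mice for Acot1, Angptl4 and Pdk4 and below them for Abat, Gcat and Oxct1.

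Some genes of lipid storage rose. Of 26 measured genes for lipid droplet proteins, triglyceride synthesis and lipases, 4 rose and 2 fell. Cidea, a droplet protein that enlarges droplets, went from 5.13, 5.23 and 5.47 to 5.96, 6.21 and 6.76 and doubled (2.06-fold; limma, adjusted p = 7.17e-05). Plin2, the common coat protein of droplets, went from 2.18, 2.39 and 2.63 to 3.06, 3.22 and 3.72 (1.83-fold, adjusted p = 0.000331). Lipe, hormone-sensitive lipase, rose 2.16-fold. The fourth gene that rose is listed as 2310016C08Rik and changed by 0.36 ± 0.07. Pnpla3, a droplet lipase that insulin and carbohydrate feeding are known to induce, fell by 1.31 ± 0.30 on one probe, against a change of -0.12 on another, and Fitm1, a protein of droplet formation, fell by 0.52 ± 0.11. These 6 calls held. Cidea and Lipe are also markers of brown and of white adipocytes. Of 10 measured white adipocyte markers Lipe alone passed, and the mean level over that list ran from -1.77 to -0.68 in CON VEH and from -1.91 to -0.38 in CON STZ. The part of fat cells in these results was not tested.

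Some enzymes of fatty acid oxidation rose, by smaller steps. Of 24 measured genes of mitochondrial beta-oxidation, 7 rose and 0 fell, with a median change of 0.18. Decr1, which handles unsaturated fatty acids, went from 7.32, 7.52 and 7.73 to 7.95, 8.24 and 8.63, 1.63-fold higher (limma, adjusted p = 0.00331). Cpt1a, one of the enzymes that hand fatty acids to the mitochondrion, rose by 0.66 ± 0.12 and Acadl, long-chain acyl-CoA dehydrogenase, by 0.49 ± 0.12. These 3 calls held, and their groups did not overlap. Cpt1b, the muscle form of Cpt1a, rose by 0.53 and Hadha, a subunit of the trifunctional protein, by 0.54. Peci, an enoyl-CoA isomerase also found in peroxisomes, rose by 0.48 and Acaa2, the last enzyme of the spiral, by 0.33. Each of these 4 overlapped between groups and lost its call without 1 or more mice, with an adjusted p of up to 0.0659 (CON VEH mouse 3), 0.0672 (CON STZ mouse 3), 0.0948 (CON VEH mouse 5) and 0.121 (CON VEH mouse 2). Acadm, medium-chain acyl-CoA dehydrogenase, changed by 0.07 ± 0.09. Without CON STZ mouse 3, which had the highest list mean at 5.70 against 5.29 to 5.54 in the other STZ mice, 3 of the 24 were called, as without CON VEH mice 3, 5 or 6, and without CON STZ mouse 4 or CON VEH mice 1 or 2, 4 were. In peroxisomal oxidation, 4 of 23 measured genes rose and 2 fell, with a median of 0.055. Pex11a, which drives peroxisome division, rose by 0.61 ± 0.11 and Ech1, a dienoyl-CoA isomerase, by 0.62 ± 0.13, both without overlap, and both calls held. Hsd17b4 and Cat, catalase, rose by 0.28 and 0.69, and Amacr and Nudt19 fell by 0.35 and 0.25. These 4 calls did not hold, with an adjusted p of up to 0.0688 without CON VEH mouse 5, 0.0683 without CON STZ mouse 3, 0.105 without CON STZ mouse 1 and 0.115 without CON STZ mouse 5. Without CON STZ mouse 3 or CON VEH mice 4 or 5, 2 peroxisomal genes were called higher.

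Lipid synthesis genes were divided. Thrsp, a regulator of fatty acid synthesis that insulin and glucose are known to induce, went from 4.90, 4.99 and 5.22 to 3.12, 3.95 and 4.14, 2.34-fold lower (limma, adjusted p = 0.000453). The stearoyl-CoA desaturase gene Scd2 fell by 0.41 ± 0.10, a call lost without CON VEH mouse 1 (adjusted p = 0.0523). Its paralog Scd4 went the other way, from -2.98, -2.73 and -1.83 to -1.34, -1.02 and -0.64 (3.02-fold, adjusted p = 0.00295). Elovl1, which lengthens fatty acids, and Me1, malic enzyme, rose by 0.56 and 0.47, and the other 14 of 19 measured genes did not pass. Of 25 genes of sterol synthesis and LDL uptake, 4 fell and 1 rose, and 22 of the 25 had a negative change, with a median of -0.23. Mvk and Pmvk, the kinases that act on mevalonate, fell by 0.59 ± 0.10 and 0.39 ± 0.08 with the groups apart, and second probes changed by -0.56 and -0.36. Tm7sf2 and Cyp51, later enzymes of the pathway, fell by 0.40 and 0.55, and Scap, the sterol sensor, rose by 0.30, but these 3 calls did not hold (adjusted p up to 0.0716 without CON STZ mouse 5, 0.114 without CON STZ mouse 1 and 0.0611 without CON VEH mouse 2). With 1 mouse left out, 2 to 5 members of the sterol list were called lower, with 2 without CON STZ mice 1 or 5 and CON VEH mice 1 or 5.

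Several genes of glucose use were lower. In a list of 28 measured genes for glucose transport and the glycolytic enzymes, 6 passed downward and 0 upward, with a median change of -0.09. The 6 became 3 without CON STZ mouse 1 or CON VEH mice 1 or 3. Hk2, the insulin-regulated hexokinase, had levels of 5.98, 6.04 and 6.24 in CON VEH and of 4.76, 5.34 and 5.70 in CON STZ, 1.70-fold lower (limma, adjusted p = 0.0103). Pfkfb2, which makes the activator of phosphofructokinase in the heart, went from 1.43, 1.49 and 1.57 to 0.42, 0.84 and 1.15, and Eno3, muscle enolase, fell by 0.44 ± 0.09. These 3 calls held, and the groups were apart for all 3 genes. With centring on the array median all 3 calls were lost (limma, adjusted p = 0.116, 0.126 and 0.0816). The same centring gave 0.223, 0.214 and 0.193 for Slc2a4, Pfkfb4 and Pkm2, described next. Slc2a4, the gene for GLUT4, went from 6.51, 6.76 and 6.93 to 5.60, 6.25 and 6.42. Its groups were apart too, but its call (adjusted p = 0.0436) was lost without any of 8 mice, up to 0.114 without CON STZ mouse 5. Pfkfb4 and Pkm2 fell by 0.47 and 0.30, up to an adjusted p of 0.0587 without CON VEH mouse 3 and of 0.108 without CON STZ mouse 1. Slc2a1, the insulin-independent transporter GLUT1, changed by -0.14 ± 0.36 (adjusted p = 0.984), with STZ levels from 1.53 to 3.12. Beside the rise of Pdk4, Pdp2, whose product removes the inhibiting phosphate that Pdk4 adds, fell by 0.86 ± 0.15 on one probe, against a change of -0.07 on another, and the other 11 of 13 measured genes of pyruvate entry did not pass. Pcx, pyruvate carboxylase, which refills the citric acid cycle, went from 2.10, 2.41 and 2.51 to 0.77, 1.35 and 1.64 (2.05-fold lower, adjusted p = 0.00277). It was the only gene of 22 in the citric acid cycle list to pass. Fbp2, the muscle fructose bisphosphatase that opposes glycolysis, went from 0.55, 0.78 and 0.98 to 1.82, 2.06 and 2.28, 2.44-fold higher (adjusted p = 0.000115).

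A few genes of the side routes of glucose and of glucose sensing rose. Of 20 measured genes of the hexosamine, polyol and pentose phosphate routes, 4 rose and 0 fell, while 10 had a positive and 10 a negative change, with a median of 0.014. Gfpt2, which opens hexosamine synthesis, went from 0.55, 0.89 and 1.16 to 1.63, 1.82 and 2.26 and doubled (2.02-fold; limma, adjusted p = 0.000296). Khk, fructokinase, rose by 0.42 ± 0.10. Both calls held. H6pd and G6pdx, which start the pentose phosphate route in the endoplasmic reticulum and the cytosol, rose by 0.38 and 0.31, up to an adjusted p of 0.0879 without CON STZ mouse 1 and 0.104 without CON VEH mouse 2. Without any of 8 single mice (CON STZ mice 1, 3, 4 and 5 and CON VEH mice 3 to 6) 2 members were called. Of 9 measured genes for Txnip, its relative and the Mondo factors that read glucose metabolites, Txnip and the zinc finger gene Klf10 rose, and 0 fell. Txnip, an inhibitor of thioredoxin and of glucose uptake, went from 4.02, 4.52 and 5.07 to 5.60, 5.64 and 6.05, 2.27-fold higher (adjusted p = 0.000687), and a second probe changed by 1.31. The 5 STZ mice other than mouse 3 lay within 5.60 to 5.80, closer together than the vehicle mice. Its promoter is shown because it holds the carbohydrate response element that Mondo factors bind, in capitals, from 85 bases before the start that RefSeq lists (chr3:96557832-96557928, plus strand, GRCm38.p6).
Txnip: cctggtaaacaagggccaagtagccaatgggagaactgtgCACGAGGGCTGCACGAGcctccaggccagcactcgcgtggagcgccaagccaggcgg
The motif searched on both strands was CACGNG, then any 5 bases, then CACGNG again, and 16 of 32851 promoter windows (0.0487%), each from 250 bases before to 50 after a start, held it. Txnip was the only one of the 8 genes of its list with a window that did.

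Several genes of amino acid breakdown fell. Abat, the mitochondrial transaminase of GABA and beta-alanine, had levels of 3.87, 3.92 and 4.15 in CON VEH and of 1.20, 1.82 and 2.18 in CON STZ, 4.49-fold lower (limma, adjusted p = 1.15e-05). The gap between the groups was larger than the range of either. The other 11 measured genes of GABA, beta-alanine and taurine did not pass. Gcat, which breaks down threonine products to glycine, went from 2.23, 2.45 and 2.71 to 0.78, 1.34 and 1.40 (2.49-fold lower, adjusted p = 2.44e-05). Aldh1b1, a mitochondrial aldehyde dehydrogenase, and Slc7a4, of the cationic amino acid transporter family, fell 1.93-fold and 1.77-fold, both without overlap. All 4 calls held. Of 25 measured genes of branched-chain amino acid breakdown and transport, 4 fell and 1 rose, and 22 had a negative change, with a median of -0.32. Bckdhb and Dbt, subunits of the dehydrogenase that commits these amino acids, fell by 0.64 ± 0.17 and 0.70 ± 0.19, and Pccb and Mmab, of the propionate route, by 0.46 ± 0.12 and 0.44 ± 0.10. The transporter gene Slc3a2 rose by 0.62 ± 0.17. None of these 5 calls held, with an adjusted p of up to 0.0859 and 0.0794 for Bckdhb and Pccb without CON VEH mouse 3, 0.115 for Dbt without CON STZ mouse 5, 0.0596 for Mmab without CON STZ mouse 1 and 0.0978 for Slc3a2 without CON STZ mouse 3. Without CON STZ mouse 3, 9 members of the list were called lower, and 0 without CON STZ mice 1 or 5 or CON VEH mouse 3. The counts without CON VEH mice 1, 2, 4 and 6 were 1, 2, 2 and 2.

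Some genes of the integrated stress response, which the kinases of eIF2 alpha switch on through the factor ATF4 when amino acids or mitochondrial function fall short, rose. Of 32 measured members, 9 rose, 7 with slide as a block, and 0 fell, with a median of 0.34. Mthfd2, a mitochondrial folate enzyme, went from -2.49, -2.13 and -1.77 to -1.44, -0.33 and 0.31, 3.24-fold higher (limma, adjusted p = 0.000574). Fgf21, a hormone that signals metabolic stress, went from -4.79, -4.50 and -4.36 to -3.69, -2.67 and -2.24, 3.46-fold higher (adjusted p = 0.00167), with mouse 3 the lowest of the STZ mice. Phgdh, the first enzyme of serine synthesis, rose by 0.56 ± 0.13, and these 3 calls held. Asns, asparagine synthetase, had STZ levels of 1.77, 1.65, 1.69, 1.59 and 1.28 in mice 1, 2, 4, 5 and 6 and of 0.34 in mouse 3, as low as the lowest vehicle mouse. Its mean rise of 0.81 ± 0.23 (adjusted p = 0.0494) became 1.02 (adjusted p = 0.00548) without mouse 3 and 0.74 (adjusted p = 0.132) without mouse 1. A slide block gave 0.76 (adjusted p = 0.079) and also lost Psat1 (adjusted p = 0.0631). The transporter gene Slc3a2, Gdf15, a secreted stress signal, Trib3, a pseudokinase, Nupr1, a stress factor, and Psat1, of serine synthesis, rose by 0.62, 1.16, 0.57, 0.60 and 0.65. The calls of the last 4 were lost without CON STZ mouse 1 (adjusted p = 0.0643, 0.0867, 0.0983 and 0.136). With 1 mouse left out the count of members called ran from 3, without CON STZ mice 1 or 5 or CON VEH mouse 4, to 10 without CON STZ mouse 3, and it was 4 or 5 without CON STZ mice 2 or 4 or the other CON VEH mice. The promoters of Asns and Fgf21 are shown because they hold the core of the amino acid response element that ATF4 binds, in capitals, from 23 and 139 bases before the listed starts (chr6:7693210-7693272 and chr7:45615582-45615669, both minus strand, GRCm38.p6).
Asns: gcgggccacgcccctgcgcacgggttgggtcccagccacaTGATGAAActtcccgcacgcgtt
Fgf21: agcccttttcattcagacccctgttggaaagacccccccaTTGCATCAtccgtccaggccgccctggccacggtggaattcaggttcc
The core searched on both strands was TGATGNAA, read on the opposite strand in Fgf21. It is short, and 3.97% of all windows held it. Of the 9 members that rose, 4 held it, the other two being Trib3 and Nupr1. Of 23 measured chaperone genes of the endoplasmic reticulum, 0 passed, with a median of 0.01.

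Some genes of the mitochondrial ribosome fell, and few genes of the respiratory chain passed. Of 75 measured genes for mitochondrial ribosomal proteins, 7 fell and 0 rose, or 9.33% beside 2.3% called lower over all genes. A negative change was seen in 72, and the median was -0.22. Mrpl46, Mrpl43 and Mrps27 fell by 0.41 ± 0.08, 0.37 ± 0.08 and 0.34 ± 0.08 (limma, adjusted p = 0.00586, 0.0139 and 0.0132), and these 3 calls held. With slide as a block 13 members were called lower, and the count was 4 without CON STZ mice 1 or 5 or CON VEH mouse 3 and 15 without CON STZ mouse 4. Of 37 genes for complex I of the respiratory chain, Ndufs8 fell by 0.42 ± 0.09 and Ndufs4 by 0.31 ± 0.09, the latter lost without CON STZ mouse 1 (adjusted p = 0.123). These 2 genes were 5.41% of the complex I list, beside 2.3% called lower over all genes. Of 46 genes for complexes II to V, 0 passed, and their median change was -0.08.

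Some genes of cardiac load and of the fetal heart rose. Of 8 measured genes for natriuretic peptides, their receptors and processing enzymes, 4 rose and 0 fell, with a median of 0.54. Nppa, atrial natriuretic peptide, had levels of 4.94, 5.15 and 5.43 in CON VEH and of 6.32, 7.43 and 8.49 in CON STZ, 5.14-fold higher (limma, adjusted p = 0.00293). Nppb, the B-type peptide, went from 5.49, 5.72 and 6.41 to 6.58, 7.02 and 7.88 (2.54-fold, adjusted p = 0.00431), and Npr3, the receptor that clears both peptides, from 0.95, 1.16 and 1.34 to 1.74, 1.84 and 1.97. Corin, the protease that activates Nppa, rose by 0.76 ± 0.20. The groups were apart for all 4, and the calls held except that of Corin (adjusted p = 0.0807 without CON VEH mouse 4, and 0.0523 with slide as a block). Myh7, which encodes the slow myosin heavy chain used before birth, went from 6.45, 7.06 and 7.42 to 7.81, 8.80 and 9.003, 3.21-fold higher (adjusted p = 0.00329). Rcan1, a calcineurin inhibitor that calcineurin itself induces, and the small heat shock gene Hspb1 rose by 0.50 and 0.46, and the former was lost without CON STZ mouse 1 (adjusted p = 0.062). The other 20 of 25 fetal and load-responsive genes did not pass. Of 9 atrial markers only Nppa passed.

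**Figure D3:**
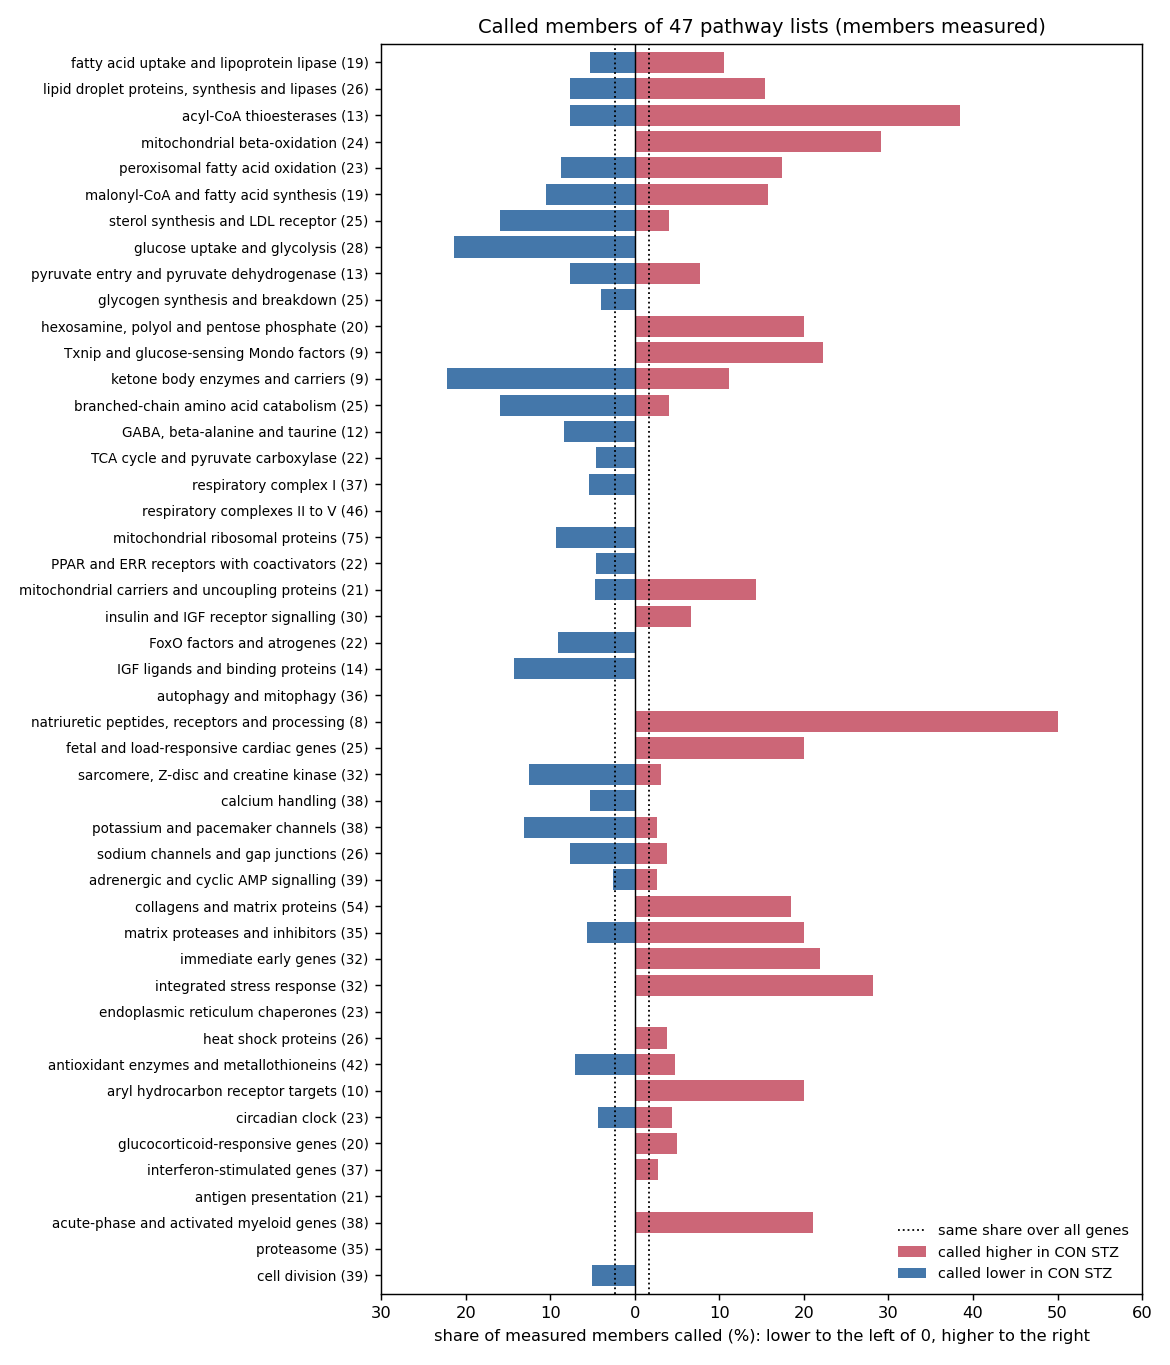
Share of the measured members of 47 pathway lists (number measured in brackets) that limma called higher (right) or lower (left) in CON STZ, in percent, with the shares over all 28235 genes, 1.66% and 2.3%, as dotted lines. The natriuretic list has the largest share higher, 4 of 8, and the lists of complexes II to V, autophagy, chaperones, antigen presentation and proteasome have no bar.

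Among contractile and electrical genes more calls were lower than higher, as was so over all genes (2.3% lower and 1.66% higher). Of 32 measured genes of the sarcomere, Z-disc and creatine kinases, 4 fell and 1 rose. Mylk4, a myosin light chain kinase gene of muscle, went from -1.79, -1.50 and -1.35 to -4.06, -3.49 and -2.63, 3.58-fold lower (limma, adjusted p = 0.000131). Ckb and Ckm, the brain and muscle creatine kinases, fell by 0.89 ± 0.14 and 0.47 ± 0.10 with the groups apart, and these calls held. Nebl fell by 0.35 and Myom2, an M-band protein, rose by 0.53, and both calls were lost without CON VEH mouse 1 (adjusted p = 0.128 and 0.105). Ckm was the only one of 13 cardiomyocyte markers to pass. Of 38 genes of calcium handling, Cacna1g, a T-type calcium channel, fell 2.57-fold and Camk2b, a calmodulin kinase subunit, 2.03-fold, both with the groups apart and both calls held. Of 38 measured genes of potassium and pacemaker channels, 5 fell and 1 rose. Kcnd2, a channel of early repolarisation, went from 2.63, 3.07 and 3.61 to 1.76, 1.98 and 2.59, 2.00-fold lower (adjusted p = 0.00211). Kcnn2, a calcium-activated channel, fell 2.05-fold, Kcna4 by 0.33 ± 0.07 and Kcnj5, a subunit of the acetylcholine-gated channel, by 0.38 ± 0.09. Kcna7 fell by 0.58 on one probe, while another changed by 0.15. Kcnk6, a background channel, rose by 0.37 ± 0.08. All 6 calls held. Without CON STZ mouse 4, 8 members were called lower. Of 26 genes for sodium channels, their regulators and gap junctions, Gja1, the ventricular connexin, went from 2.52, 2.81 and 2.95 to 2.09, 2.29 and 2.39 (1.42-fold lower, adjusted p = 0.0053), Fxyd6, a regulator of the sodium pump, fell 1.66-fold, and Scn7a rose by 0.62, a call lost without CON VEH mouse 6 (adjusted p = 0.0976).

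The mean level over the matrix genes was higher in 5 STZ mice, at 2.19 to 2.74, than in any vehicle mouse, at 1.77 to 2.13, and lowest of all in STZ mouse 3, at 1.57. Of 54 measured genes for collagens and other matrix proteins, 10 rose and 0 fell, with a median of 0.28. Without CON STZ mouse 3, 17 passed and the median was 0.53. Without CON STZ mouse 1, 2 passed, without any other single mouse 3 to 8, and with slide as a block 5. Ctgf, a matrix-associated growth factor, went from 5.25, 5.42 and 5.62 to 6.35, 7.39 and 8.64, 4.08-fold higher (limma, adjusted p = 0.00533). Thbs3, a thrombospondin, went from 0.79, 0.98 and 1.22 to 1.37, 1.87 and 2.24, 1.73-fold higher, and both calls held. Thbs1, Fbln5, Fbln2 and Postn, a matrix protein of activated fibroblasts, rose by 1.04, 0.53, 0.58 and 1.26, and each call was lost without CON STZ mouse 1 (adjusted p = 0.0531, 0.105, 0.11 and 0.147). With slide as a block Fbln2 and Postn were lost too (adjusted p = 0.0633 and 0.0719). The fibrillar collagen gene Col1a1 had levels from 4.59 to 5.37 in CON VEH. In CON STZ it had 6.30, 5.91, 5.89, 5.72 and 5.55 in mice 1, 2, 4, 5 and 6 and 3.67 in mouse 3, so 5 STZ mice lay above and 1 below every vehicle mouse. Col3a1 showed the same split, with 5.07 to 5.44 in CON VEH, 5.61 to 6.44 in 5 STZ mice and 2.97 in mouse 3. Neither passed, at 0.37 ± 0.35 (adjusted p = 0.836) and 0.18 ± 0.44 (adjusted p = 0.983), nor without mouse 3, at 0.73 (adjusted p = 0.162) and 0.68 (adjusted p = 0.31). The mean level over 12 fibroblast markers was 3.74 in mouse 3, 4.31 to 4.71 in the other STZ mice and 3.88 to 4.17 in CON VEH. Mfap5 was the only one of these markers to pass, a call lost without CON STZ mouse 1 (adjusted p = 0.108) and with slide as a block (adjusted p = 0.0518), and the part of fibroblast number in the matrix results was not tested. Of 35 measured matrix proteases and inhibitors, 7 rose and 2 fell. Mmp14, a membrane-bound protease, and Adamts1 rose by 0.70 and 0.94, and both calls held. Timp1, an inhibitor of matrix proteases, Adam8, a protease of leukocytes, and Mmp2, a gelatinase, rose by 1.88, 2.18 and 0.59, and the collagenase gene Mmp13 fell by 2.36, a size that rests in part on signal at background, since it was above background in 4 of 6 STZ mice. These 4 were lost without CON STZ mouse 1 (adjusted p = 0.0615, 0.0735, 0.137 and 0.0781), and without that mouse or CON VEH mouse 4 the 7 members called higher became 3, and without CON STZ mouse 5 or CON VEH mouse 2 they became 4.

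Some acute-phase and immediate early genes rose. Of 38 measured acute-phase and activated myeloid genes, 8 rose and 0 fell, with a median of 0.86. The list mean was -1.71 to -1.27 in CON VEH, -1.46 in CON STZ mouse 6 and -0.74 to -0.02 in the other STZ mice. The 8 became 3 without CON STZ mice 1 or 5 or CON VEH mouse 4, 4 or 5 without CON VEH mice 2, 3 or 5, and 13 without CON STZ mouse 6. Cp, ceruloplasmin, went from 3.25, 3.38 and 3.62 to 3.83, 4.45 and 4.71 (1.99-fold; limma, adjusted p = 0.00659), Osmr, the oncostatin M receptor, rose 1.75-fold and Ccl9, a chemokine, 2.22-fold, and these 3 calls held. Fgl2, Chi3l1 and Serpina3n, a secreted protease inhibitor, rose by 0.73, 1.86 and 2.23, and each was lost without CON STZ mouse 1 (adjusted p = 0.0593, 0.0716 and 0.105). Of 18 macrophage and monocyte markers only Itgam, an integrin of myeloid cells, passed, at 0.48 on its brightest probe and 0.02 and -0.09 on the others. The mean over these markers was 0.81 to 1.37 in 5 STZ mice, 0.62 to 0.85 in CON VEH and 0.15 in STZ mouse 3, and the part of these cells in the results was not tested. Genes of antigen presentation gave 0 calls of 21, and of 37 interferon-stimulated genes 1 rose. Of 32 measured immediate early genes 7 rose and 0 fell, with a median of 0.48. STZ mouse 3 had the highest list mean, 1.63, against 0.78 to 1.30 in the other STZ mice, and 3 or 4 were called without CON STZ mice 1, 3 or 5 or any single vehicle mouse. Gadd45g, Ier3 and Myc rose 2.01-fold, 1.67-fold and 2.35-fold, and these calls held. Atf3 and Fos rose by 1.59 and 1.31, lost without CON STZ mouse 1 (adjusted p = 0.0938) and CON VEH mouse 4 (adjusted p = 0.113). Of all genes, 4 were below background in every vehicle mouse and above it in every STZ mouse, Cyp1a1 and Mc2r, described further on, and C5ar1 and Gpnmb, which were chosen after their values were seen. C5ar1, the complement receptor of myeloid cells, and Gpnmb, a glycoprotein of macrophages, were at least 2.04-fold and 3.05-fold higher, given as a description with no test, since this pattern chose them. Each such lower bound is taken against the lowest signal above background on each array.

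**Figure D4:**
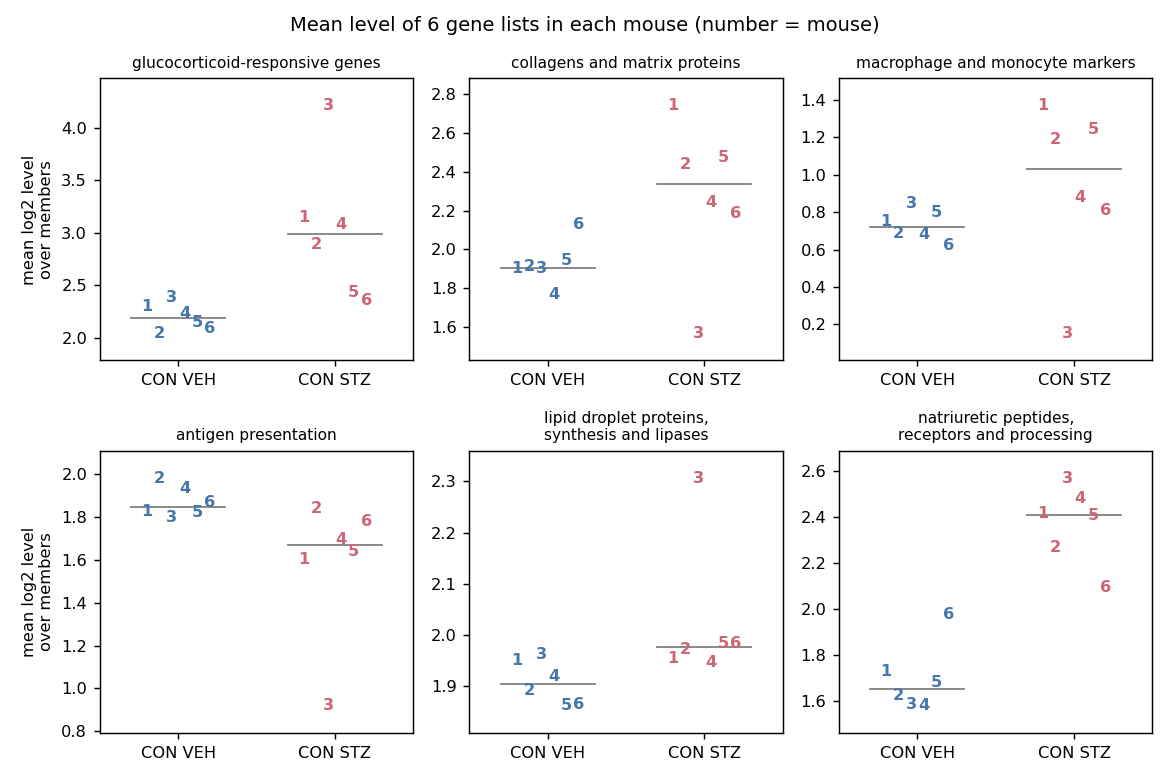
Mean log2 level over the members of 6 gene lists (vertical axes, different ranges) in each mouse, printed as its number, with the group median as a grey line. CON STZ mouse 3 is at 4.21 for glucocorticoid-responsive genes and below all other mice at 1.57 for matrix genes, 0.15 for macrophage markers and 0.92 for antigen presentation, while it is highest for the natriuretic list at 2.57.

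CON STZ mouse 3 stood apart from its group more widely. It was the mouse farthest from its group's median in 11560 of 27837 genes with a value in every STZ mouse, or 41.5%, against 4.08% to 18.7% for the other 5. In the 469 genes called higher its median shift from the vehicle mean, 0.80, was as large as that of mouse 1, and mouse 6 had the smallest, 0.44. Glucocorticoid-responsive genes were highest in it. The mean over 20 measured members was 2.04 to 2.38 in CON VEH, 3.14, 2.89, 3.08, 2.43 and 2.35 in STZ mice 1, 2, 4, 5 and 6, and 4.21 in mouse 3. Of these 20 genes only Mc2r, the corticotropin receptor, passed, and 0 fell. The median change of 0.70 was larger than that of most lists, and without CON STZ mouse 3 it was 0.41. Mc2r was not well above background in any vehicle mouse and was at least 1.81-fold higher. Its limma p (adjusted p = 0.00403) used vehicle signal below background, so it does not test that bound. Fkbp5, a chaperone that glucocorticoids are known to induce, had 2.27 to 2.69 in CON VEH and 4.02, 3.11, 5.43, 3.68, 2.78 and 2.50 in STZ mice 1 to 6, a difference of 1.16 ± 0.52 (adjusted p = 0.291). Cdkn1a, Zbtb16 and Per1, with differences of 1.61, 1.09 and 1.39, and the metallothionein genes Mt1 and Mt2, with 1.01 and 2.57, were also highest in mouse 3 and did not pass (adjusted p from 0.0646 for Mt2 to 0.394 for Zbtb16). Sgk1, a kinase induced by glucocorticoids, differed by 0.94 ± 0.27 (adjusted p = 0.0516). The promoters of Sgk1, Mt1 and Serpina3n, each highest in mouse 3, are shown because they hold a letter match to the palindrome that the glucocorticoid receptor binds. The match, in capitals, begins 188, 94 and 78 bases before the listed starts (chr10:21993662-21993754, chr8:94178955-94179047 and chr12:104406590-104406682, all plus strand, GRCm38.p6).
Sgk1: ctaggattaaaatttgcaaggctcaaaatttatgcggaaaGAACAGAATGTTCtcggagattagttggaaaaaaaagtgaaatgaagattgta
Mt1: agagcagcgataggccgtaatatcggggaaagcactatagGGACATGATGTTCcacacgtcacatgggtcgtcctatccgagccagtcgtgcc
Serpina3n: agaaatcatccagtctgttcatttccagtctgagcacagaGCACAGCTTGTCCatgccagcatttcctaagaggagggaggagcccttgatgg
The letters searched were GNACA and TGTNC with any 3 bases between them, which 0.475% of all windows held. Of the 16 list genes with a window, only Sgk1 held them. Mt1 and Serpina3n are outside that list, and the part of glucocorticoids in the levels of mouse 3 was not tested. Mouse 3 shared slide 3 with STZ mouse 5 and with 2 vehicle mice, and its glucose of 601 and weight of 24.0 were within the range of its group.

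Some single genes of other systems changed clearly. Cyp1a1, a cytochrome P450 that the aryl hydrocarbon receptor induces, was below background in all 6 vehicle mice. It had -0.20, -2.49, -1.51, -2.54, -2.86 and -2.94 in STZ mice 1 to 6 and was at least 8.32-fold higher. Its limma p (adjusted p = 0.00046) also used vehicle signal below background and does not test that bound. Cyp1b1, its relative, went from -0.95, -0.83 and -0.42 to 0.20, 0.88 and 1.93, 3.37-fold higher, and the other 8 of 10 measured targets did not pass. Per2, a clock gene, went from -3.70, -3.46 and -2.93 to -2.86, -1.44 and -0.85 (3.72-fold, adjusted p = 0.0166), Hlf, a clock output factor, fell by 0.48 ± 0.08, and the other 21 clock genes did not pass. Foxo6, a FoxO factor, went from 2.36, 2.82 and 3.06 to -0.44, 0.84 and 1.67, 3.97-fold lower (adjusted p = 0.00052), with a change of -1.11 on a second probe. In the list of 22 FoxO factors and muscle atrophy genes it and Sesn3, which fell by 0.54, were the only calls, and Sesn3 was lost without CON STZ mouse 5 (adjusted p = 0.0968). Gpx3, the secreted glutathione peroxidase, rose 1.80-fold, and Gstk1, a glutathione transferase, fell 1.55-fold, a call lost without CON VEH mouse 1 (adjusted p = 0.0546). Rbp7, which binds retinol and marks endothelium, rose 1.97-fold and was the only one of 21 endothelial markers to pass. Htra1, a secreted protease, fell by 0.54 ± 0.11. Igfbpl1, a relative of the IGF binding proteins, and Klra6, a lectin-like receptor gene, fell by 1.86 and 2.06, but were above background in 1 and 2 of the 6 STZ mice, so that these sizes rest in part on signal at background. The proteasome list of 35 genes and the autophagy list of 36 gave 0 calls each, and 2 of 39 cell division genes fell. In either direction, 8.70% of the clock list, 9.09% of the FoxO list, 4.76% of the endothelial markers and 5.13% of the cell division list were called. Over all genes the share was 3.96%.

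Among the 15 genes with the smallest p in each direction were 14 from outside the groups described above. The higher ones were Cgref1, a secreted growth regulator, which went from -1.11, -1.03 and -0.64 to 0.36, 0.94 and 1.22 and rose 3.63-fold (limma, adjusted p = 7.17e-05), Spsb2, a ubiquitin ligase adaptor, at 2.73-fold, Vwa3a and Trim47, a ubiquitin ligase, at 2.17-fold each, Fkbp10, a chaperone of collagen, at 1.89-fold, and the probe named Sykb, for the tyrosine kinase Syk, at 1.63-fold. Among the lower ones, Tmprss4, a transmembrane protease, went from -0.93, -0.84 and -0.26 to -4.30, -3.80 and -2.35, 6.97-fold lower, within slides by 1.75, 2.98 and 3.58. Clvs1, a lipid-binding protein, was 2.80-fold lower, Spc24, a kinetochore subunit, 2.59-fold, Tmem56 1.99-fold, Pla2g5, a secreted phospholipase, 1.91-fold, Lrp3, of the LDL receptor family, 1.63-fold, Ssx2ip 1.56-fold and Snrnp25, of the minor spliceosome, 1.54-fold. For all 14 the groups were apart and the calls held.

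The same treatment in mG4H hearts, with other mice on the same slides, gave mostly changes of the same sign. There, 28 genes (0.0992%) were called higher and 47 (0.166%) lower. Of the 469 genes called higher in CON hearts, 462 (98.5%) had a positive change in mG4H hearts, and of the 648 called lower, 632 (97.5%) had a negative one, while 71.2% of all genes had the same sign in both. The median change of the 469 was 0.67 in CON and 0.39 in mG4H hearts, and that of the 648 was -0.49 and -0.32. The genes were chosen for their change in CON hearts, so the smaller medians in mG4H hearts are a description with no test. The mice also differed in more than genotype. Blood glucose was below 600 in some mG4H STZ mice and 601 in the others, while every CON STZ mouse had 600 or 601. Most mG4H VEH mice were lighter than every CON VEH mouse. The part of the lower glucose in the smaller changes of mG4H hearts was not tested. The difference between the effects was tested directly, and 0 of 28235 genes passed in limma, with 501 genes (1.77%) at an unadjusted p under 0.05. The 5 genes with the smallest p for this difference were Abat, Fgf21, Grin2c, a glutamate receptor subunit gene, Acot4 and Cib3, a calcium-binding protein gene. Abat fell by 2.17 ± 0.21 in CON and by 0.38 ± 0.21 in mG4H hearts. The difference of 1.79 (adjusted p = 0.15) reached an adjusted p of 0.0431 with slide as a block and of 0.00255 without slide 4. Fgf21 rose by 1.79 ± 0.30 in CON hearts and changed by -0.57 ± 0.30 in mG4H hearts (adjusted p of the difference 0.228). Grin2c fell by 1.19 ± 0.22 and changed by 0.42 ± 0.22 (adjusted p = 0.311). Acot4 changed by 0.93 and 0.15 and Cib3 by -1.29 and 0.20, with adjusted p = 0.606 and 1.0 for the difference.

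**Figure D5:**
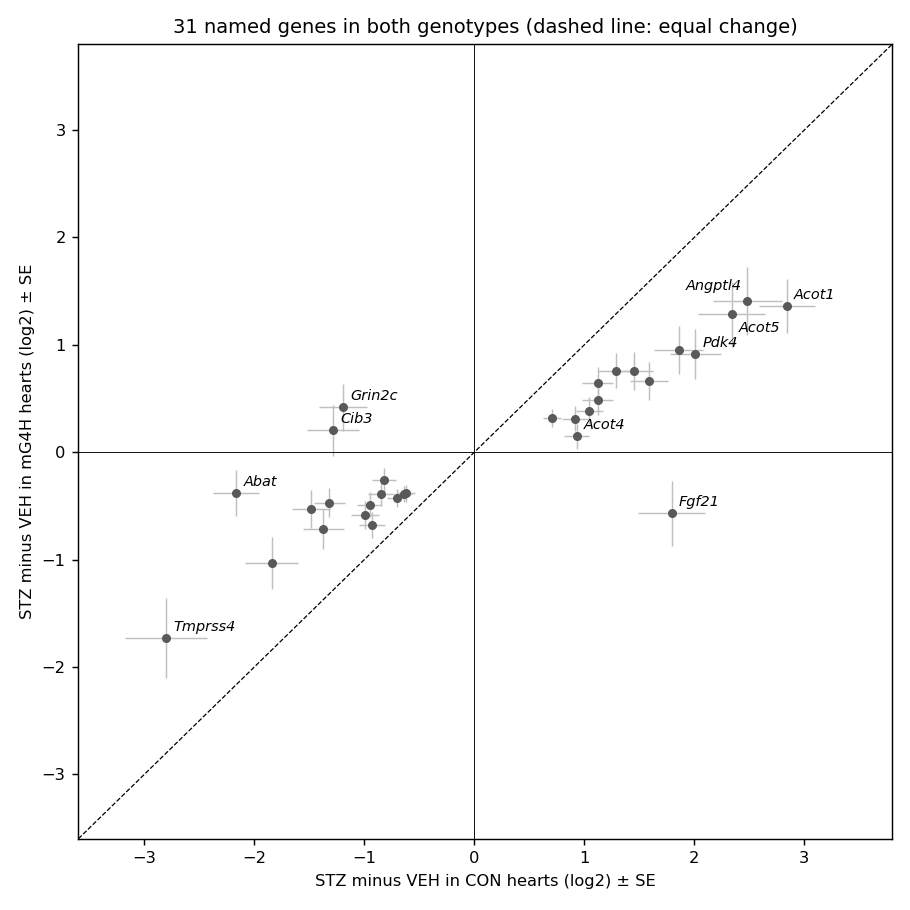
Log2 change from VEH to STZ with its standard error in CON hearts (horizontal axis) and mG4H hearts (vertical axis) for 28 of the 30 genes with the smallest p in CON hearts, 15 sought in each direction, and 3 genes with a small p for the difference. The 28 genes keep their sign in both genotypes and lie nearer to 0 in mG4H hearts than the dashed line of equal change, and Fgf21, Grin2c and Cib3 change sign.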

How the data were processed

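Each left ventricle was measured on 1 single-colour Agilent array. The deposited intensity is Feature Extraction 10.5.1.1's processed signal, background-subtracted and not scaled between arrays, per the file headers, and the submitters' processing notes also name limma. Probe positions in the headers are on mm9. Here signals were put on a log2 scale relative to the 75th percentile of the 59305 gene spots on the same array. Outlier spots were left out and spots of a probe averaged. Probes well above background on at least 6 of 24 arrays were kept (39766 probes), and the brightest probe stood for its gene (28235 genes). Of 20543 genes with a RefSeq accession, 16520 matched the symbol table, and array names are printed. All 24 arrays were fitted in limma 3.58.1 (R 4.3.3) with a mean per group, and p was adjusted over all genes by Benjamini-Hochberg. Python 3.11.15 ran the exact tests. Promoter windows (250 bases before to 50 after the start) are RefSeq's on GRCm38.p6. The fit was tested on simulated data.

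The samples, the 66 gene lists (1391 measured genes) and the rules were chosen with earlier results of these data known. Named genes were the 15 smallest p per direction among called symbols above background in all mice of a group, up to 6 called members per list, further members needed to describe a list, Slc2a4, and the 5 smallest p for the genotype difference. A few genes that the rule names are not reported here. Alternatives were quantile normalization, median centring, normexp background, other filters, the mean of probes, blocks for slide and replicate number, the CON arrays alone, array weights, body weight, and leaving out slide 4 or each CON mouse. Replicate numbers were not taken as pairs.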

Additional observations from a re-analysis of the deposited data

Results flagged for a closer look

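In each group of 6 mice, a highest or lowest value was marked when its gap to the nearest other mouse was over 0.625 of the group's whole range. Chance marks about 1 in 20 groups. Of 476 groups examined for named genes, list means, blood glucose and body weight, 44 (9.24%) had such a value. Of these 44, 28 were CON STZ groups, blood glucose among them, and in 18 the value was that of CON STZ mouse 3.

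CON STZ mouse 3 was highest in its group for Acot1 (7.05, next 6.19), Acot5 (2.48, next 1.34), Plin2 (3.72), Cat (4.32) and Khk (2.94). It was lowest for Asns (0.34, next 1.28), Ckb (1.64), Cacna1g (-1.58), Kcnn2 (-1.23), Pfkfb4 (-1.18), Col1a1 (3.67, next 5.55) and Col3a1 (2.97, next 5.61). Among list means it was highest for lipid droplet genes (2.31), the GABA and taurine genes (0.57), mitochondrial carriers (3.59) and antioxidant genes (4.15), and lowest for interferon-stimulated genes (-0.61) and antigen presentation (0.92).

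Other STZ mice were marked in fewer places. Mouse 1 was highest for Adam8 (1.11) and lowest for Cib3 (-3.52), and mouse 6 was lowest for G6pdx (0.89), Myh7 (7.81) and Per2 (-2.86). Mouse 4 was lowest for the list means of the hexosamine and pentose phosphate routes (2.01) and of skeletal muscle markers (-4.19), and mouse 5 was highest for T and NK cell markers (-2.72) and B cell markers (-3.37). Mouse 2 had a blood glucose of 600 where the other 5 had 601.

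Among vehicle mice, mouse 5 was lowest for Lipe (-1.39), Peci (5.86) and Slc25a34 (4.73) and highest for Per2 (-2.93). Mouse 4 was lowest for Pnpla3 (-1.14), Psat1 (-1.79) and Corin (2.13) and highest for Hadha (3.84), Tmprss4 (-0.26) and the citric acid cycle list (5.98). Mouse 2 was lowest for Mvk (2.74) and highest for interferon-stimulated genes (0.42). Mouse 1 was highest for Pmvk (4.08) and Nebl (-1.22), mouse 3 for Bckdhb (5.36), and mouse 6 was lowest for Htra1 (5.81).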

How the results depend on the processing

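Under the alternatives run, the counts of genes called higher and lower (469 and 648) moved by more than 1.5 times in these. Array weights gave 1185 and 1222, centring on the array median 162 and 164, body weight as a covariate 58 and 110, leaving out slide 4 272 and 370, and the CON arrays alone with a slide block, added after the data were seen, 266 and 393. With 1 CON mouse left out the counts ran from 264 to 548 and from 372 to 712, lowest in both without CON STZ mouse 1. They also fell by more than 1.5 times without CON VEH mouse 2 (293 higher), mouse 3 (305 and 400), mouse 4 (305 higher) and mouse 5 (287 higher) and without CON STZ mouse 5 (400 lower). Body weight differs with treatment, so that fit removes part of the treatment effect by construction. For the others the cause was not tested. The genotype difference, 0 genes, gave 1 with a slide block and 1 without slide 4, both Abat, and 6 with array weights. Counts of calls within single slides were not run.

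With the replicate block the counts were 409 and 528, and the 6 same-numbered pairs had correlations of their deviations from 0.543 down to -0.457, so the numbers were not taken as pairs. The deviations were not adjusted for slide, and only some of these pairs shared a slide, so this check cannot exclude pairing by number. Blood glucose and body weight differed by 460.2 and -5.25 with the replicate block too, by an exact sign-flip test (p = 0.0312). Glucose, weight and their directions kept their side of the threshold in every alternative run. Of 161 named genes past the threshold, all kept their direction, 154 kept their call with the slide block, 75 with median centring and 44 with body weight. Col3a1, which did not pass, changed to -0.014 without CON STZ mouse 1 and to 0.68 without CON STZ mouse 3. Signals near background limit the sizes of Cyp1a1, Mc2r, Mmp13, Igfbpl1 and Klra6. Sizes of some other dim genes also depend on the background method. With the normexp background Acot4 went from 0.93 to 0.40 and Scd4 from 1.60 to 1.05. Acot3 went from 0.61 to 0.30 and lost its call (limma, adjusted p = 0.134). The genotype difference of Fgf21 went from -2.36 to -0.85.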
